A study of Arabidopsis thaliana with 24 samples.

Results

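The comparison described here asks where roots and shoots of seedlings answer osmotic shock differently. It is the change in root after 3 h of PEG minus the change in shoot over the same time, each set against water, and it rests on 12 of the 24 libraries of the series. Arabidopsis thaliana seedlings of the line labelled ulox, 7 d old, were grown at 21 °C under 16 h of light and 8 h of dark with 1% sucrose. They were placed in water for 1 h or in 30% PEG 8000 for 3 h, at a measured osmotic pressure of -2.0 MPa, and then cut into roots and shoots. The 4 groups are shoot in water, shoot in PEG, root in water and root in PEG, with 3 replicates (A, B and C) of 30 to 50 seedlings each. All 4 groups share the ulox genotype, which the labels do not define. Columbia-0 is named in the growth conditions, but no wild type library is among these samples. Water was sampled at 1 h only, and the titles code it as time 0, so 3 h in PEG also differs from water by time of day and by time in liquid, alike for both organs. PEG and time therefore cannot be told apart within an organ, nor in the difference between organs if their course over time differs.

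Polyethylene glycol of this size stays outside the cells and draws water out of the tissue, as drying soil does. In plants short of water, abscisic acid binds receptors of the PYR/PYL family, which then hold back the clade A protein phosphatases. This frees SnRK2 kinases and ABF transcription factors to switch on protective genes such as dehydrins and proline synthesis. A parallel route runs through DREB and CBF factors, which bind a dehydration-responsive element in promoters, and roots and shoots can use both.

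Library totals in the 12 libraries ran from 1203312 to 4500440 counts, with 11638 to 13932 genes detected. The organ labels were borne out by markers in each library. The 38 photosynthesis genes listed took 23.8% to 28.5% of shoot counts and 0.163% to 0.245% of root counts, with 0 to 3 of them at 0 in a root library. The 9 tested genes of the Casparian strip and endodermis, the root's inner barrier, belong to a list that took 0.116% to 0.145% of root counts and 0.00249% to 0.00423% of shoot counts. A separate tissue field reads root for every sample and goes against the source names and these markers. Root replicates varied more, with a biological coefficient of variation of 34.2% against 17.2% in shoot. Root water B had the fewest genes detected (11638), and root PEG C the highest scaling factor (1.53, against 0.951 and 1.195 in root PEG B and A).

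After 3 h of PEG far more genes passed the test in shoot than in root. That test takes a spread shared by both organs, although root replicates varied more. Most organ differences were genes that rose in shoot and did not pass the test in root. Of 10967 genes tested, 285 (2.6%) differed between organs in their change, at a Benjamini-Hochberg adjusted p under 0.05 in edgeR's quasi-likelihood test (such genes are called here). The root change was lower than the shoot change for 222 genes (2.02%) and higher for 63 (0.574%). Among the 222, 202 rose in shoot without a call in root, 6 rose in both organs, and 1 rose in shoot and fell in root. Among the 63, 50 fell in shoot without a call in root and 5 rose in root without a call in shoot. In the same fit 914 genes (8.33%) were called in shoot, 609 up (5.55%) and 305 down (2.78%), and 111 (1.01%) in root, 45 up (0.41%) and 66 down (0.602%). The root count rests on few libraries and was 56 to 103 with each library left out in turn, lowest without root PEG B, and 62, 65 and 61 without root water A, B and C. Its direction was not stable either: 74 rose and 42 fell with library totals, 55 rose and 23 fell without root PEG C, and 34 rose and 16 fell without root water B and root PEG C.

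The median absolute size of the called differences was 2.09 on the log2 scale for the lower genes and 2.08 for the higher ones. Passing the test selects for large values, and the smallest called were 0.99 and 1.16 in size. The median signed difference over all genes tested was 0.13. With library totals in place of TMM scaling that median was 0.38 and the split moved to 89 higher and 152 lower (63.1% lower against 77.9%), so a difference is best read against these medians. The count of 63 higher genes fell to 33 in the 12 libraries alone, and to 39, 38 and 38 without shoot PEG A, B and C. With root and shoot of the same treatment and letter taken as a block it fell to 35. This block, called seedling batch here, is inferred from the letters. With that block 194 differences were called in all, 159 of them lower in root.

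**Figure D1:**
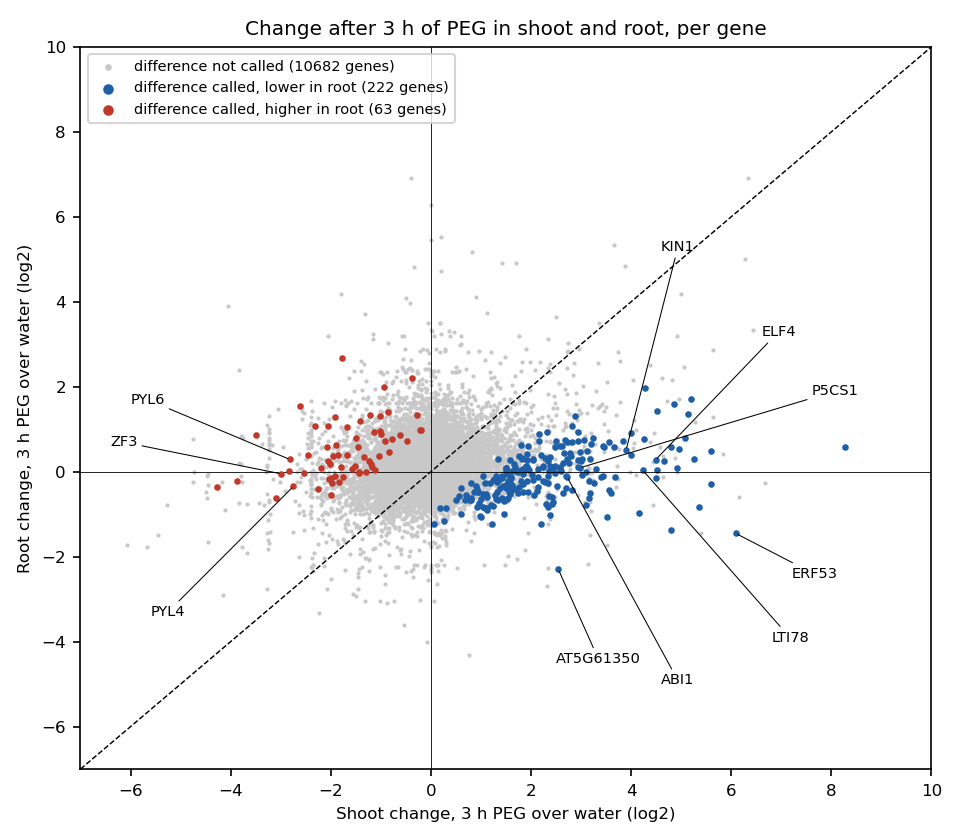
Each point is 1 of the 10967 genes tested, with its change in shoot (x axis) and in root (y axis) after 3 h of PEG over water, both in log2; blue points are the 222 genes called lower in root, red the 63 called higher, and the dashed line marks equal change. Most coloured points lie along the line of no root change, to the right for genes that rose in shoot and to the left for genes that fell there.

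Root values of genes sorted by their shoot call are given here as a description. Roots and shoots share a fit and scaling and could come from the same treated seedlings. The 609 genes that rose in shoot had a median shoot change of 1.68 and a median root change of 0.26 on the log2 scale. Of these 609, 28 also rose in root and 1 fell, and 415 (68.1%) had a root value above 0, beside 56.2% of all genes tested. The 305 genes that fell in shoot had a median root change of -0.30, and 18 of them fell in root. Read the other way, the 45 genes that rose in root had a median change of 1.59 in root and 1.73 in shoot. Across the 10967 genes the changes of the organs correlated weakly (Pearson r = 0.20), over genes that are not independent and include many near 0.

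Genes for dehydration proteins, the hydrophilic proteins thought to shield membranes and enzymes as cells dry, rose in shoot and for the most part not in root. Of 22 tested, 16 rose in shoot and 1 in root. The organ difference was called for 9, all lower in root, and the list's median difference was -1.87 (-2.16 with genes at 0 counts taken at a floor of 3 counts over a group). Over all genes tested, 5.55% rose and 2.78% fell in shoot, and 0.41% rose and 0.602% fell in root. The difference was called lower in root for 2.02% of them and higher for 0.574%. Counts for this list and those below are to be read beside these shares. LTI78, better known as RD29A and the classical reporter of osmotic stress, stood at 126, 194 and 163 normalised counts (CPM, TMM-scaled) in the shoot water libraries A, B and C and at 2587, 3072 and 3403 in shoot PEG. In root it stood at 84.2, 53.9 and 84.0 CPM in water and at 69.3, 67.5 and 91.2 in PEG. The shoot groups lay far apart, while the root groups overlapped. The log2 change was 4.24 in shoot and 0.04 in root, a difference of -4.20 ± 0.47 (SE; edgeR adjusted p = 3.81e-06).

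KIN1, a small cold- and abscisic acid-induced protein, likewise rose in shoot without a call in root, at a lower shoot level than LTI78. Its shoot libraries held 35.1, 37.5 and 48.2 CPM in water and 698, 596 and 520.5 in PEG. Its root libraries held 157, 81.1 and 147 CPM in water and 181, 223 and 151 in PEG, so root was above shoot in water and below it in PEG. The difference was -3.39 ± 0.37 (edgeR adjusted p = 3.81e-06). LEA14, a late embryogenesis abundant protein, went from 189, 272 and 308 CPM to 1432, 1223 and 1231 in shoot, and from 579, 466 and 570.3 to 526, 440.3 and 542 in root. Root water again exceeded shoot water, and the root groups overlapped (difference -2.44 ± 0.31, edgeR adjusted p = 1.84e-05).

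RD26, a NAC transcription factor counted with the dehydration genes, was the member that rose in both organs. It went from 13.5, 15.0 and 24.1 CPM to 499, 530.2 and 520.5 in shoot, and from 12.9, 11.7 and 12.8 to 40.3, 29.4 and 42.2 in root. Neither organ's groups overlapped, and the log2 change was 4.86 in shoot and 1.58 in root, a difference of -3.28 ± 0.50 (edgeR adjusted p = 0.000192). The dehydrin LTI30 (difference -3.49) and ERD7 (-1.73) were also called under every alternative run. The calls of the dehydrin COR47, the membrane protein COR413-PM1 and KIN2, a near copy of KIN1 whose reads could be shared, were lost without 4, 2 and 8 single libraries respectively. Their highest adjusted p values on leaving out 1 library were 0.0744 and 0.101 for COR47 and KIN2, each without shoot water A, and 0.0518 for COR413-PM1, without shoot water C. Of members not called, COR15A, a chloroplast-targeted stress protein picked after its values were seen, rose from a mean of 30.7 to 1299 CPM in shoot but stood at 0.354 and 0.0581 CPM in root, too low for a change there to be measured (adjusted p = 0.096).

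**Figure D2:**
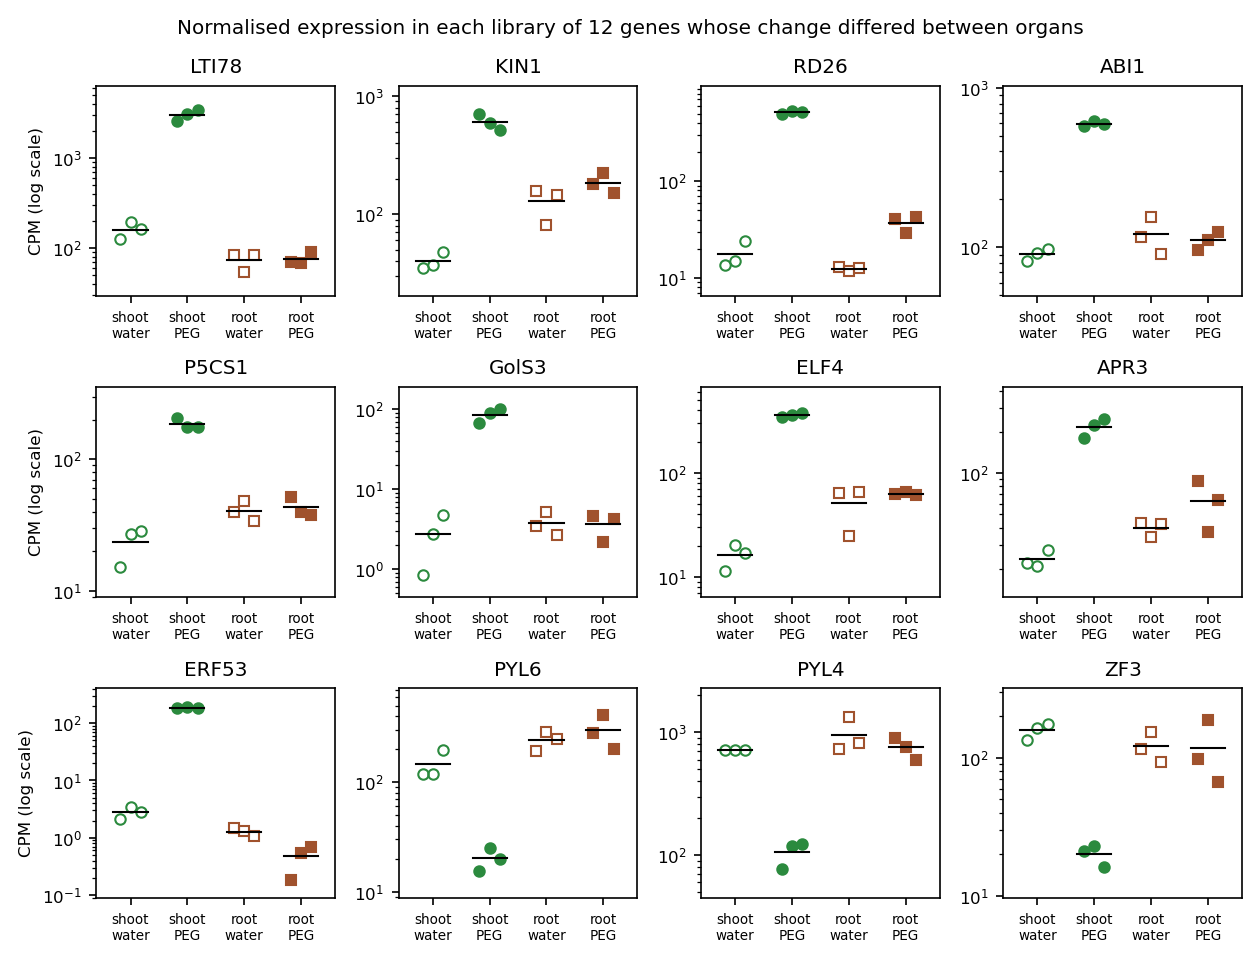
TMM-scaled CPM on a log axis in each of the 12 libraries for 12 genes whose change differed between organs; green circles are shoot, brown squares root, open symbols water, filled symbols 3 h of PEG, in the order A, B, C, and black bars are group means. In the first 9 panels shoot PEG lies above all other groups, with LTI78 at 2587 to 3403 CPM, and in the last 3 it lies below them, with PYL4 at 76.8 to 122 CPM.

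The core of abscisic acid perception moved in opposite senses at its receptors and its phosphatases in shoot. Of 8 receptor genes tested, 4 fell and 1 rose in shoot. The difference was called for 3, all higher in root, with a list median of 1.34. PYL6 stood at 118, 119.9 and 197 CPM in shoot water and at 15.3, 25.0 and 19.98 in shoot PEG. In root it stood at 192, 289 and 246 CPM in water and at 283, 409.8 and 199 in PEG, with overlapping groups. Its difference was 3.11 ± 0.41 (edgeR adjusted p = 3.09e-05). PYL4 held 719, 719 and 714 CPM in shoot water and 76.8, 119 and 122 in shoot PEG, while root held 735, 1330 and 812 in water and 901, 761 and 600.1 in PEG. Shoot and root were thus near each other in water and apart in PEG (difference 2.401 ± 0.41, edgeR adjusted p = 0.000673). The call for PYL5 (1.62, adjusted p = 0.0311) was lost without any 1 of 9 libraries, with an adjusted p of up to 0.101, reached without root PEG B.

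The clade A phosphatases, which switch the pathway off and are themselves induced by it, went the other way. Of 7 tested, 6 rose in shoot, and the difference was called for 4, all lower in root (median -2.24). ABI1 rose from 81.7, 92.6 and 97.5 CPM to 580.5, 622 and 595 in shoot. Its root libraries read 116, 155 and 90.9 CPM in water and 95.6, 111 and 124 in PEG, so that only the shoot groups separated. The difference was -2.85 ± 0.32 (edgeR adjusted p = 3.81e-06). PP2CA (difference -2.01) and ABI2 (-2.71) were called under every alternative run that tested them. HAI2 had 0 counts in the 3 shoot water libraries and 8.64, 7.91 and 16.6 CPM in shoot PEG, against 0 to 1.12 CPM in the 6 root libraries, so no fold is given. Its call was lost without root water A (adjusted p = 0.213), root water B (0.0708), shoot water A (0.062) or shoot water C (0.0583).

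Downstream of the phosphatases the differences were fewer. Of 7 kinase and bZIP genes tested 1 was called, ABF2, a bZIP factor of abscisic acid responses, with a difference of -1.82 and an adjusted p of 0.0197. That call was lost without any 1 of 6 libraries (up to 0.096, without root water C). Of 7 genes of abscisic acid synthesis and breakdown edgeR, DESeq2 and limma called 0 in the difference, and 0 had an unadjusted edgeR p under 0.05. Over all genes tested edgeR called 2.6%, and 12.7% had such an unadjusted p. NCED3, which encodes the rate-limiting enzyme of stress-induced abscisic acid synthesis, rose in both organs, from 3.39, 0.681 and 1.19 CPM to 19.2, 22.9 and 22.8 in shoot and from 2.24, 1.30 and 1.06 to 8.76, 7.08 and 6.45 in root. Its difference was -1.40 with a 95% interval of -2.87 to 0.07, so a gap of up to that size could not be told from none.

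Transcription factors of the DREB, CBF and zinc finger families differed between organs, 7 of 16 tested lower in root and 1 higher, with a median of -1.33. ERF53, a DREB-type factor, had the largest negative difference of the genes named by size. It stood at 2.12, 3.41 and 2.77 CPM in shoot water and at 183, 194 and 181 in shoot PEG, against 1.49, 1.30 and 1.06 in root water and 0.186, 0.544 and 0.698 in root PEG. The shoot groups were far apart and each root library lay below the lowest shoot library. The difference was -7.54 ± 0.92 (edgeR adjusted p = 1.15e-05). ZAT6, a zinc finger factor, was already high in root water, at 215, 253 and 146 CPM, and read 112, 225 and 134 in root PEG. In shoot it went from 38.9, 32.7 and 46.6 CPM to 251, 306 and 214, to about the level of root (difference -3.09 ± 0.42, edgeR adjusted p = 4.34e-05).

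The CBF genes, which encode the C-repeat binding factors of cold and drought responses, lie next to each other and are near copies, so that reads could be shared between them. CBF1 read 9.73, 10.2 and 21.3 CPM in shoot water and 88.3, 84.6 and 49.8 in shoot PEG, and 19.1 to 27.8 CPM in all 6 root libraries. Its difference was -2.24 ± 0.46 (edgeR adjusted p = 0.00448). DREB1A (CBF3) rose in shoot from 5.92, 6.81 and 5.13 CPM to 305, 215 and 135, and in root it read 4.98, 8.44 and 4.78 in water and 20.3, 14.7 and 21.4 in PEG. The root groups did not overlap, though the root change of 1.71 was not called (adjusted p = 0.167). The difference of -3.49 had an adjusted p of 0.0115, and of 0.0573 without root water B. CBF2 (-1.75), CZF1 (-1.44) and RAP2.4 (-1.28) lost their calls without any 1 of 10, 9 and 5 libraries, with adjusted p values of up to 0.14, 0.119 and 0.0696. ZF3 (AZF3), a zinc finger repressor, was the member that differed in the other sense. It fell in shoot from 135, 166 and 177 CPM to 21.1, 22.9 and 16.3 and read 116, 155 and 93.5 in root water and 98.6, 189 and 67.1 in root PEG (difference 2.95 ± 0.52, edgeR adjusted p = 0.00107).

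Among stress NAC and HD-Zip factors 8 of 9 tested rose in shoot and 1, RD26, in root; 4 were called in the difference, all lower in root (median -2.10). NAC032 rose in shoot from 8.89, 11.6 and 19.0 CPM to 159, 182 and 172, and its root libraries read 50.5, 99.9 and 59.5 in water and 77.0, 47.4 and 65.9 in PEG. Root in water was thus above shoot in water, and root groups overlapped (difference -3.80 ± 0.50, edgeR adjusted p = 2.81e-05). ATAF1 rose in shoot from 76.6, 77.0 and 119.7 CPM to 1351, 1380 and 1173, and its difference was -3.11. NAC3 (NAC055) had a difference of -4.41 with an adjusted p of 0.00797, which rested on root water A: without that library, the adjusted p was 0.571.

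Genes for the synthesis of compatible solutes, the small molecules that hold water in cells, differed at 2 of 13 tested, both lower in root (median -1.05). P5CS1, the rate-limiting enzyme of proline synthesis under stress, rose in shoot from 15.2, 27.2 and 28.4 CPM to 207, 174 and 177. In root it read 39.6, 48.0 and 34.0 CPM in water and 51.6, 39.7 and 37.7 in PEG, with overlapping groups (difference -2.89 ± 0.32, edgeR adjusted p = 4e-06). GolS3, a galactinol synthase of the raffinose pathway, rose from 0.847, 2.73 and 4.74 CPM to 66.2, 90.0 and 99.3 in shoot, and root stayed between 2.18 and 5.19 CPM in its 6 libraries. Its difference was -4.82 ± 0.74 (edgeR adjusted p = 0.000213). No difference was called for P5CR, the next enzyme of proline synthesis, at 0.20, nor for ERD5, a proline dehydrogenase, at 0.06; both were picked after their values were seen.

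Of 13 clock genes tested 9 rose in shoot. The organ difference was called for 4, all lower in root (median -1.45), and for 7 with DESeq2 size factors and 8 with DESeq2. ELF4, a component of the evening complex, went from 11.4, 20.4 and 17.0 CPM to 346, 364 and 376 in shoot. It read 64.2, 24.7 and 65.4 CPM in root water, where library B lay apart, and 62.8, 66.4 and 61.2 in root PEG. The difference was -4.21 ± 0.42 (edgeR adjusted p = 1.23e-06). FKF1, a blue light receptor of the F-box family, rose in shoot from 17.8, 25.2 and 25.3 CPM to 207, 198 and 204 and read 10.8 to 44.1 in root (difference -3.78). GRP7, an RNA-binding protein under clock control, differed by -1.83, and PCL1 (LUX), another evening complex member, by -1.57. FKF1 and PCL1 overlap a neighbouring gene in the TAIR10.1 table, and the strand used in counting is not given in the sources used here. At 1 h of PEG the difference was also called for these 4 genes. It was -2.03 for ELF4 (edgeR adjusted p = 0.012), -3.69 for FKF1 (0.000877), -1.62 for GRP7 (0.00698) and -1.47 for PCL1 (0.00926). These values share the water libraries of the 3 h comparison, and a part played by time of day was not tested.

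Sulfur deficiency genes formed the list with the most negative median difference, -2.60. All 8 tested rose in shoot, 1 (LSU2) rose in root, and 3 were called lower in root in the difference. APR3, an enzyme of sulfate reduction, rose in shoot from 22.01, 21.1 and 27.6 CPM to 181, 224 and 250.5. In root it read 43.1, 34.4 and 42.5 CPM in water and 88.2, 37.0 and 63.5 in PEG, with overlap at library B (difference -2.54 ± 0.42, edgeR adjusted p = 0.000508). APR1, its near copy, differed by -2.89, and LSU3, of a small family induced when sulfur is short, by -3.78. APR3 overlaps a neighbouring gene.

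Promoters were searched for stress and clock motifs. Windows of 300 bases, 250 before and 50 after the annotated start, were read from the RefSeq TAIR10.1 genome for 10907 of the genes tested and searched on both strands; the authors' build is not given in the sources used here. The ACGTGNC motif, of the abscisic acid-responsive type, stood in 18.9% of the 222 genes lower in root, 3.17% of the 63 higher in root and 12.1% of all. The dehydration-responsive core CCGAC stood in 25.2%, 11.1% and 16.2% of them, respectively. For the evening element AAAATATCT the shares were 10.8%, 0% and 3.14%, and for GATAAG they were 25.2%, 17.5% and 15.0%. The 0 of 63 promoters with an evening element are a small set, and only this window was read. Of the 400 genes that rose in shoot without a called difference, 16.2%, 20.8%, 6.0% and 21.0% held these 4 motifs in the same order, between the genes lower in root and all genes tested. Of the 45 genes that rose in root, 11.1%, 26.7%, 6.67% and 11.1% held them, with CCGAC at 26.7% beside the 25.2% of genes lower in root. A match is a string of letters and not a binding site, and no test was made. The 250 bases before the start of 5 genes lower in root follow, picked after their matches were seen because together they hold all 4 motifs; capitals mark the matches on either strand.
LTI78 (RD29A), chr5:21240467-21240716, plus strand: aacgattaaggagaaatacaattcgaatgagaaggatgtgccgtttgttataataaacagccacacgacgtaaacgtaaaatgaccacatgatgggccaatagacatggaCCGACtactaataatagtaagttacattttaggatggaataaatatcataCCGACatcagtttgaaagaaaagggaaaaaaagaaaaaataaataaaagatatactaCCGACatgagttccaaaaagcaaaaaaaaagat
GolS3, chr1:3019389-3019638, plus strand: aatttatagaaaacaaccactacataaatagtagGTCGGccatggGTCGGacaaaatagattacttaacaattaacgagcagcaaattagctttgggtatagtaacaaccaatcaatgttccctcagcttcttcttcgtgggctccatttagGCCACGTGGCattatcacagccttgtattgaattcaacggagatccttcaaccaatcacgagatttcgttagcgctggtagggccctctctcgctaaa
PCL1 (LUX), chr3:17182792-17183041, plus strand: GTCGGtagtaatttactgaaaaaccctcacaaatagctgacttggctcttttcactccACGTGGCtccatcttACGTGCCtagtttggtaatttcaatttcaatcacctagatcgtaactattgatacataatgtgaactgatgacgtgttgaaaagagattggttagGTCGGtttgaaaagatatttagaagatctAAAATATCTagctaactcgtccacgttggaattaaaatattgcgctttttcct
GRP7, chr2:9266558-9266807, minus strand: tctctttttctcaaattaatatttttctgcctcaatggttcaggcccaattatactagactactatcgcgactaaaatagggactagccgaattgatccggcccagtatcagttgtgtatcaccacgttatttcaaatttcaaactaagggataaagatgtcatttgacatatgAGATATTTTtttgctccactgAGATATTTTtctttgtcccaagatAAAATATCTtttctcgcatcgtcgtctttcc
RD26, chr4:13709171-13709420, minus strand: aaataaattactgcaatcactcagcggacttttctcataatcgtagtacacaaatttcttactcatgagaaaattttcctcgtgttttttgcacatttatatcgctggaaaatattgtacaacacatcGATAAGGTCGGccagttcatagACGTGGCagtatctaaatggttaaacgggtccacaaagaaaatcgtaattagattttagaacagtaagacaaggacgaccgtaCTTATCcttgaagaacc

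The LTI78 stretch holds 3 matches to CCGAC and none to the other motifs, and its shoot level rose from 126 to 194 CPM in water to 2587 to 3403 in PEG. GolS3 holds 2 matches to CCGAC and 1 palindrome that reads as ACGTGNC on both strands, counted as 2. PCL1 holds 2 matches to ACGTGNC, 2 to CCGAC and 1 to the evening element, and GRP7 holds 3 to the evening element alone. RD26 holds 2 matches to GATAAG, one of them directly before its 1 match to CCGAC, and 1 to ACGTGNC. No match of one motif overlaps a match of another in these 5 stretches.

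The 63 genes whose change was higher in root were mostly genes that fell in shoot. EXO (EXORDIUM), a gene that promotes growth, fell in shoot from 509, 646 and 622 CPM to 60.5, 69.6 and 77.8. Root read 489, 376 and 543 CPM in water and 406, 275 and 236 in PEG, a smaller shift within overlapping groups (difference 2.47 ± 0.34, edgeR adjusted p = 5.47e-05). EXPA10, an expansin of the same list of 20 wall loosening genes, went the other way: it rose in shoot from 21.6, 25.2 and 30.0 CPM to 241, 280.3 and 293, and stayed at 2.13 to 5.19 in root (difference -3.53). These were the 2 members called, and the list's median was -0.06 beside 0.13 over all genes.

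Low oxygen genes had the most positive list median, 1.43, with 3 of 14 tested called higher in root and 1 lower. ERF73 (HRE1), an ethylene response factor of the hypoxia response, read 33.4, 38.3 and 31.4 CPM in root water and 60.2, 88.2 and 52.5 in root PEG. In shoot it fell from 19.1, 23.2 and 24.5 CPM to 15.3, 8.75 and 10.4. Neither organ's groups overlapped, although the root change was not called (adjusted p = 0.0712), and the difference was 1.96 ± 0.38 (edgeR adjusted p = 0.00318). ERF73 overlaps a neighbouring gene. AT5G15120 (PCO1), a plant cysteine oxidase that senses oxygen, and AT3G10040 (HRA1), a hypoxia attenuator, differed by 4.16 and 2.66 at low counts. The first was lost without shoot PEG B (adjusted p = 0.0526), the second without shoot PEG B (0.0635) or C (0.0593). SUS1, a sucrose synthase, differed by -2.13, and its call was lost without any 1 of 11 libraries (up to 0.101, without shoot water A).

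Touch and wound genes, which respond to handling, fell in shoot for 13 of 17 tested and in root for 3. Over all genes tested 2.78% fell in shoot and 0.602% in root. In the difference 2 of the 17 were called, both higher in root (median 0.73). ERF104, an ethylene response factor, fell in shoot from 237, 212 and 216 CPM to 48.0, 77.9 and 57.8, while root read 292, 202 and 273 in water and 254, 191 and 201 in PEG. Its difference of 1.59 had an adjusted p of 0.012, and of 0.0513 and 0.0504 without shoot PEG A and C. AT5G51190 (ERF105) differed by 1.86 and lost its call without any 1 of 8 libraries (up to 0.0819, without root water C). Single calls higher in root came from the auxin exporter PIN7 (1.22, edgeR adjusted p = 0.0152), 1 of 15 auxin genes tested, and from TT7. TT7, a flavonoid hydroxylase, was 1 of 15 phenylpropanoid and flavonol genes tested (2.55, edgeR adjusted p = 0.00623). Over all genes tested, 0.574% were called higher in root. PIN7 lost its call in the 12 libraries alone (0.0731), and both genes did with seedling batch as a block (0.102 and 0.0567).

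Genes named by size had a mean of at least 20 counts and no overlap of PEG and water in an organ. Of their 8 largest positive differences, AT1G33760, annotated as a DNA-binding protein, fell in shoot from 63.5, 70.8 and 75.8 CPM to 3.84, 2.92 and 3.996. Root stood at 0 to 2.24 CPM throughout. Shoot thus fell towards the low level of root (difference 3.91 ± 0.80, edgeR adjusted p = 0.00464). AT1G70990, a proline-rich protein, was at 44 counts in shoot water and 3 in shoot PEG, a water to PEG ratio of 15.4 (95% counting interval 4.95 to 77.7), with root at 20.6 to 44.8 CPM. AT5G35732, of unknown function, rose in root from 49.8, 50.0 and 44.6 CPM to 119, 384 and 78.0 (difference 2.93, edgeR adjusted p = 0.0053). Its root PEG B stands apart, yet the call held without each single library. The auxin-responsive SAUR36 read 9.71, 18.8 and 12.8 CPM in root water and 19.2, 48.4 and 19.9 in root PEG, with no overlap. Its call (3.14) was lost without shoot water C (0.0923), shoot PEG B (0.0717) or shoot PEG C (0.0554). AT2G46150 (2.84) lost its call without any 1 of 7 libraries (up to 0.135, without shoot PEG B), and AT2G20835 (2.74) in limma voom (0.0541).

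By the same rule, the 8 largest negative differences were those of ERF53, GolS3, PUB19, AT4G25433, AT1G51090, AT4G28140, AT1G07985 and AT1G49450. PUB19, a ubiquitin ligase of drought signalling, rose in shoot from 5.92, 5.45 and 11.4 CPM to 112, 97.0 and 65.2. In root it read 69.7, 85.0 and 67.5 CPM in water and 50.3, 26.1 and 28.6 in PEG, lower in each PEG library than in each water library, though this change of -1.06 was not called (adjusted p = 0.243). The difference was -4.59 ± 0.59 (edgeR adjusted p = 2.47e-05). AT1G51090, annotated in heavy metal transport, had the smallest adjusted p of all the differences named (-5.13 ± 0.45, edgeR adjusted p = 1.29e-07), with 251 to 307 CPM in shoot PEG and 2.42 to 9.57 in root. AT4G25433, with a LysM domain, and AT1G49450, with WD40 repeats, were higher in root than in shoot in water, at means of 11.9 and 10.5 CPM against 0.859 and 1.34. Both were higher in shoot in PEG, and all 8 of these calls held under every alternative run that tested them.

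Only AT5G61350, a protein kinase, was called in opposite directions. It read 0.423, 0 and 1.58 CPM in shoot water and 6.72, 4.998 and 3.07 in shoot PEG, against 4.23, 9.73 and 4.25 in root water and 1.49, 1.09 and 0.872 in root PEG. The groups separated in both organs, at low counts (difference -4.85 ± 0.89, edgeR adjusted p = 0.00147). A further 22 genes rose and 18 fell in both organs without a called difference. AT5G43620, annotated in pre-mRNA cleavage, rose from 3.39, 1.36 and 1.19 CPM to 16.3, 11.7 and 13.5 in shoot and from 3.73, 1.95 and 0.531 to 15.3, 17.42 and 18.7 in root. Its difference was 0.11 with a 95% interval of -1.49 to 1.71, so these data allow a gap of up to that size either way. LSU2 rose to 89.2, 91.2 and 102 CPM in shoot PEG and to 44.7, 33.7 and 26.5 in root PEG, from 1.95 to 9.57 in the 6 water libraries, with a difference of -1.87 (interval -3.56 to -0.19, adjusted p = 0.319). The intervals of AT3G03125 (-1.95 to 2.54), AT3G03341 (-2.29 to 1.70) and AT5G10990 (-6.27 to 0.75) were wide, and AT3G52055 had 0 counts in all 6 water libraries, so that no difference is given.

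Genes of root identity gave no called difference. As 2.6% of all genes tested were called, lists of this size could hold none at that share alone. Of 14 root hair genes tested 7 fell in root, and no difference was called; shoot held little of their transcripts (0.000332% to 0.00138% of shoot counts), which leaves the difference imprecise. Their summed share in root went from 0.0754% to 0.109% in water to 0.0248% to 0.0402% in PEG. In such bulk samples fewer cells of a type and less RNA per cell cannot be told apart. XTH14, a wall enzyme of root hairs, read 145, 232 and 100.5 CPM in root water and 58.2, 47.4 and 34.5 in root PEG. Casparian strip genes took 0.126% to 0.141% of root counts in water and 0.116% to 0.145% in PEG, ranges that overlap.

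In all, 17 of the 27 lists had a called member. The other 10 were root hair, Casparian strip, nutrient transporter, photosynthesis, jasmonate, heat shock, wax and ER body genes, abscisic acid synthesis and breakdown, and vacuolar aquaporins. Of their 136 tested members edgeR, DESeq2 and limma voom each called 0, where edgeR called 2.6% of all genes tested. An unadjusted edgeR p under 0.05 was found for 12 (8.82%), beside 12.7% of all genes tested. The 38 photosynthesis genes had a median difference of -0.08, and the 23 jasmonate genes one of -0.25, beside 0.13 over all genes. Of 13 plasma membrane aquaporins, the water channels, PIP2B (-1.34) and PIP2E (-1.59) were called lower in root, and lost the call without any 1 of 7 and 11 libraries (up to 0.102 and 0.213, without shoot PEG A and root water A). Of 14 starch and sugar transport genes CT-BMY (BAM3), a chloroplast beta-amylase, differed by -2.86, lost without root water A (0.116) or C (0.0687), and BAM1 by -1.18, lost without any 1 of 6. Of 11 genes of darkness and low sugar, EXL4 (-2.44) held under every alternative, AT3G59940 (-1.57) was lost without shoot water A (0.0664) or shoot PEG B (0.0528), and DYL1 (-1.41) without any 1 of 6 libraries.

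**Figure D3:**
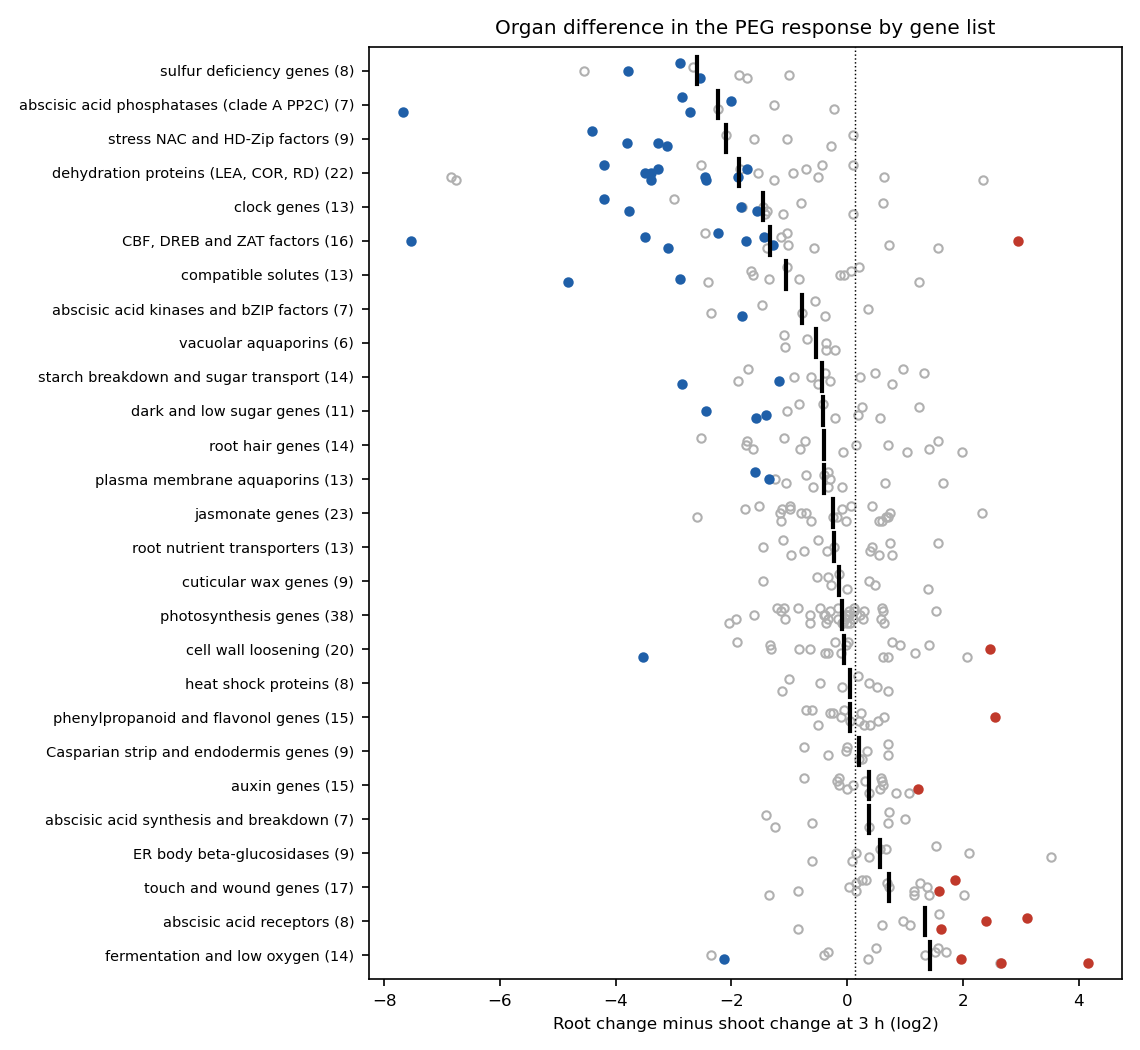
Root change minus shoot change at 3 h (log2, x axis) for each tested member of 27 gene lists, with the number tested in brackets; blue and red filled points are members called lower and higher in root, open points were not called, black bars are list medians and the dotted line is the median of all genes tested (0.13). Sulfur deficiency genes lie lowest, with a median of -2.60, and low oxygen genes highest, with 1.43.

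At 1 h of PEG, 146 genes (1.33%) were called for the organ difference. The direction seen at 3 h was the same at 1 h for 219 of the 222 lower and 58 of the 63 higher genes, but these times share their water libraries, so the signs are no independent support. From 1 h to 3 h of PEG, a comparison that uses no water library, the organ difference moved for 30 genes (0.274%), 20 towards lower (0.182%) and 10 towards higher in root (0.0912%). LTI78 moved by -2.70 ± 0.45 (edgeR adjusted p = 0.00586): its shoot change went from 2.43 at 1 h to 4.24 at 3 h, while its root change went from 0.94 to 0.04. KIN1 (-2.24), P5CS1 (-1.88), GolS3 (-3.65), ELF4 (-2.17) and EXPA10 (-2.09) widened likewise, with the shoot moving further from water and the root staying within 1 log2 unit of it. The receptors PYL6 and PYL4 moved the other way, by 2.35 and 2.16 (edgeR adjusted p = 0.00687 and 0.0122), as their shoot level fell further. SUS1 moved by -3.36 ± 0.55 (edgeR adjusted p = 0.00586), from a difference of 1.23 at 1 h to -2.13 at 3 h. Its 1 h value rests on a low mean of 2.79 CPM in shoot PEG. Its 3 h call was lost without any 1 of 11 libraries, so a change of sign is not established.

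**Figure D4:**
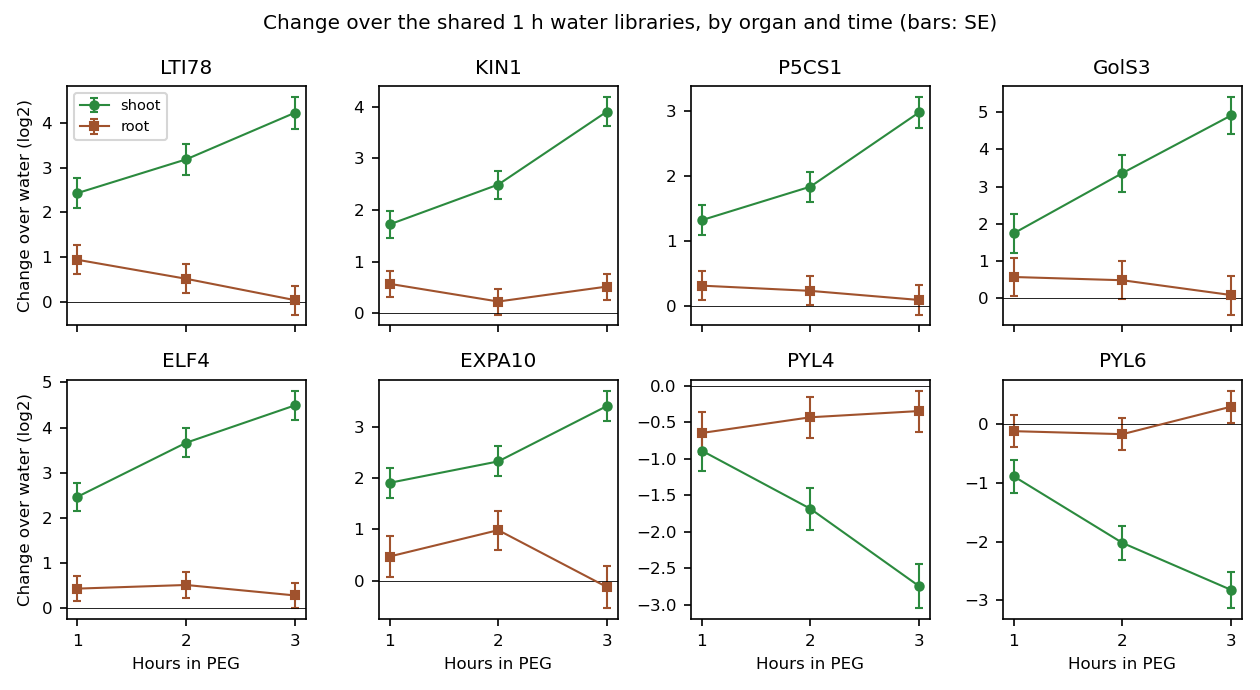
Change over water (log2, with SE) after 1, 2 and 3 h of PEG in shoot (green circles) and root (brown squares) for 8 genes; all times are set against the same 3 water libraries of their organ, so points within a line are not independent. LTI78 reached 4.24 in shoot and 0.04 in root at 3 h, and PYL6 reached -2.82 in shoot and 0.29 in root.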

How the data were processed

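Libraries were made with MARS-seq, which tags transcript 3′ ends, from total RNA, per the labels' protocols. The deposited table holds raw counts per gene made by the authors with bcl2fastq, cutadapt, STAR 2.4.2a, HTSeq and DESeq2, per the submitters' processing notes, which give no order. The sources used here do not name the genome build, the strand setting or any collapsing of molecular identifiers. The other 48 per-sample columns (normalized and transformed values) were not used. Samples were grouped by source name. The labels call the replicates biological (pooled seedlings), and p-values measure the spread between these pools, estimated over both organs together.

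Genes were filtered with filterByExpr, scaled by TMM and fitted in edgeR 4.0.16 (R 4.3.3) over 8 groups and 24 libraries, with robust quasi-likelihood tests, two-sided, adjusted over 10967 genes at 0.05. The biological coefficient of variation of this fit was 27.4%. SEs derive from the F statistic. limma 3.58.1 and DESeq2 1.42.0 were alternatives. Replicate pairs differed by more than sampling noise (chi-square per degree of freedom 2.30 to 35.3).

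Named genes are the 8 largest called differences each way (mean of at least 20 counts, PEG and water not overlapping in an organ), up to 6 each called oppositely or alike, and per list the 2 smallest p-values and any called. The members and the 27 lists were chosen with earlier results of these data known. Symbols and overlaps come from RefSeq TAIR10.1 (14457 of 14557 loci matched). Intervals given for counts cover counting error only.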

Additional observations from a re-analysis of the deposited data

Results flagged for a closer look

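The change after 3 h of PEG differed between organs, by the test of the difference itself, for 63 genes called higher and 222 called lower in root, and the difference moved between 1 h and 3 h of PEG for 30 genes. The genes with the largest called differences are set out for that reason, within the limits used for naming genes. These were a mean of at least 20 counts and no overlap of PEG and water in an organ. Called differences outside these limits can be larger, as for AT5G15120. Higher in root were AT1G33760 (log2 difference 3.91), AT1G70990 (3.65), SAUR36 (3.14), PYL6 (3.11), ZF3 (2.95), AT5G35732 (2.93), AT2G46150 (2.84) and AT2G20835 (2.74). Lower in root were ERF53 (-7.54), AT4G25433 (-6.17), AT1G51090 (-5.13), AT4G28140 (-5.12), AT1G07985 (-4.95), GolS3 (-4.82), AT1G49450 (-4.65) and PUB19 (-4.59), and AT5G61350 (-4.85) was the one called in opposite directions. With 3 libraries a group, no formal test for an outlying library was made. Single libraries were left out in turn, as given below.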

How the results depend on the processing

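The 285 called differences became 194 to 387 under other scalings, filters, tools and fits, and 200 to 277 with 1 library left out at a time (38 to 67 higher, 157 to 214 lower). The number higher in root was 33 in a fit of the 12 libraries alone and 35 with seedling batch as a replicate block. With the replicate letter as a block, 266 were called (55 higher, 211 lower). Same-lettered root and shoot libraries of a treatment did not deviate together (r from -0.205 to 0.133, 1 of 12 pairs over 0.1), and in shoot 1 of 18 pairs of one letter across treatments was over 0.1. In root 9 of 18 were (r from -0.502 to 0.640), 5 of them among the 6 pairs of letter C. The letters were not taken as pairs in the main fit, but these values cannot exclude a shared letter effect in root. The median r in root was 0.325 for letter C (0.051 to 0.640), and -0.078 and -0.066 for letters A and B. Without root water B and root PEG C together, an alternative chosen after seeing the data, 277 differences and 50 root changes were called. With single libraries left out, root changes numbered 56 to 103 and shoot changes 659 to 1036. With library totals, the 1 h difference had 76 calls against 146. DESeq2 called 387. Of the 67 named genes called, 40 kept the call under all alternatives that tested them and 0 changed sign. The 12 shoot and root libraries (1203312 to 4500440 counts) limit what low genes can show. The cause of the lost calls was not tested.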
